A study of Sus scrofa with 9 samples.

Results

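Transcripts of the enzymes that break down the branched-chain amino acids were examined in back muscle (longissimus dorsi) from 9 male finishing pigs that differed in their supply of lysine. The genes were chosen by their place in the pathway, with earlier results of these data known: BCAT2, BCKDHA, BCKDHB, DBT, IVD, ACAD8, HIBADH, MCCC1, PCCA and PCCB. Of these 10 genes, 8 had a probe set whose only gene symbol was theirs, on 9 of the 27558 probe sets of the array. PCCB had 2 probe sets, and the one with the higher mean was taken as its main value. ACAD8 and MCCC1 had no such probe set and were not analysed here.

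Leucine, isoleucine and valine share their first steps of breakdown. BCAT2, the mitochondrial aminotransferase, moves the amino group to 2-oxoglutarate, and the branched-chain ketoacid dehydrogenase complex, an assembly of BCKDHA, BCKDHB, DBT and DLD, then removes the carboxyl group irreversibly. Skeletal muscle is known for high aminotransferase activity, and muscle passes much of the resulting ketoacid to other organs. Past the complex the routes part: IVD acts on leucine carbon, HIBADH on valine carbon, and the propionyl-CoA carboxylase made of PCCA and PCCB takes up carbon from isoleucine and valine. Lysine itself is broken down by a separate route.

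By the study's description, animals of about 95 kg initial weight ate feed that was lysine-deficient, lysine-adequate or lysine-excess over 5 weeks and gave muscle from between ribs 10 and 12 at slaughter. There were 3 pigs and 3 arrays for each feed. Pigs 1, 2 and 3 were deficient, pigs 5, 6 and 7 adequate, and pigs 9, 10 and 11 in excess. The labels refer lysine to the NRC swine requirement without stating its content in each diet. The comparisons asked whether these transcripts differed with the lysine supply.

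The deposited values are on a log scale, taken as log2 from their range of 3.10 to 14.30, so each fold change rests on that reading. Excess pig 11 had an array unlike the rest: its correlation with the other arrays ran from 0.904 to 0.956, against 0.977 to 0.992 among the other 8. The array quality weights of limma are lower where an array strays more from its diet means. They were lowest in the excess diet, at 0.68, 0.19 and 0.22 in excess pigs 9, 10 and 11. In the other pigs they ran from 0.90 to 2.46. Low weight thus coincided with the excess diet and cannot be told apart from it. The labels give no batch or scan date. The 5 measured skeletal muscle markers, ACTA1 among them, had mean levels in the top percent of all probe sets, whereas 0 of 3 erythroid and 0 of 2 nerve and Schwann cell markers lay above the median level. The lowest and the highest mean of the 9 fibroblast and matrix markers in a pig, as log2 levels, were 9.25 and 9.73 in deficient, 9.79 and 10.28 in adequate and 9.18 and 9.66 in excess pigs. In whole muscle, fewer cells of a type and less RNA per cell cannot be told apart.

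All 8 measured genes were well within the range of signal of the array, with mean levels at the 76.2nd to the 94.8th percentile of all probe sets. Levels of different genes are not compared, because each probe set has its own brightness.

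BCAT2 (probe set 15297527) read 9.06, 8.94 and 9.45 in deficient pigs 1, 2 and 3, 8.96, 9.29 and 9.29 in adequate pigs 5, 6 and 7, and 9.11, 8.93 and 8.80 in excess pigs 9, 10 and 11. The highest value was that of deficient pig 3 and the lowest that of excess pig 11, and the values of the 3 groups overlapped. The log2 difference from the adequate pigs was -0.029 ± 0.16 (SE, n = 3 pigs per group) in deficient pigs and -0.23 ± 0.16 in excess pigs, which is 1.17-fold lower, or -0.16 without excess pig 11.

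**Figure D1:**
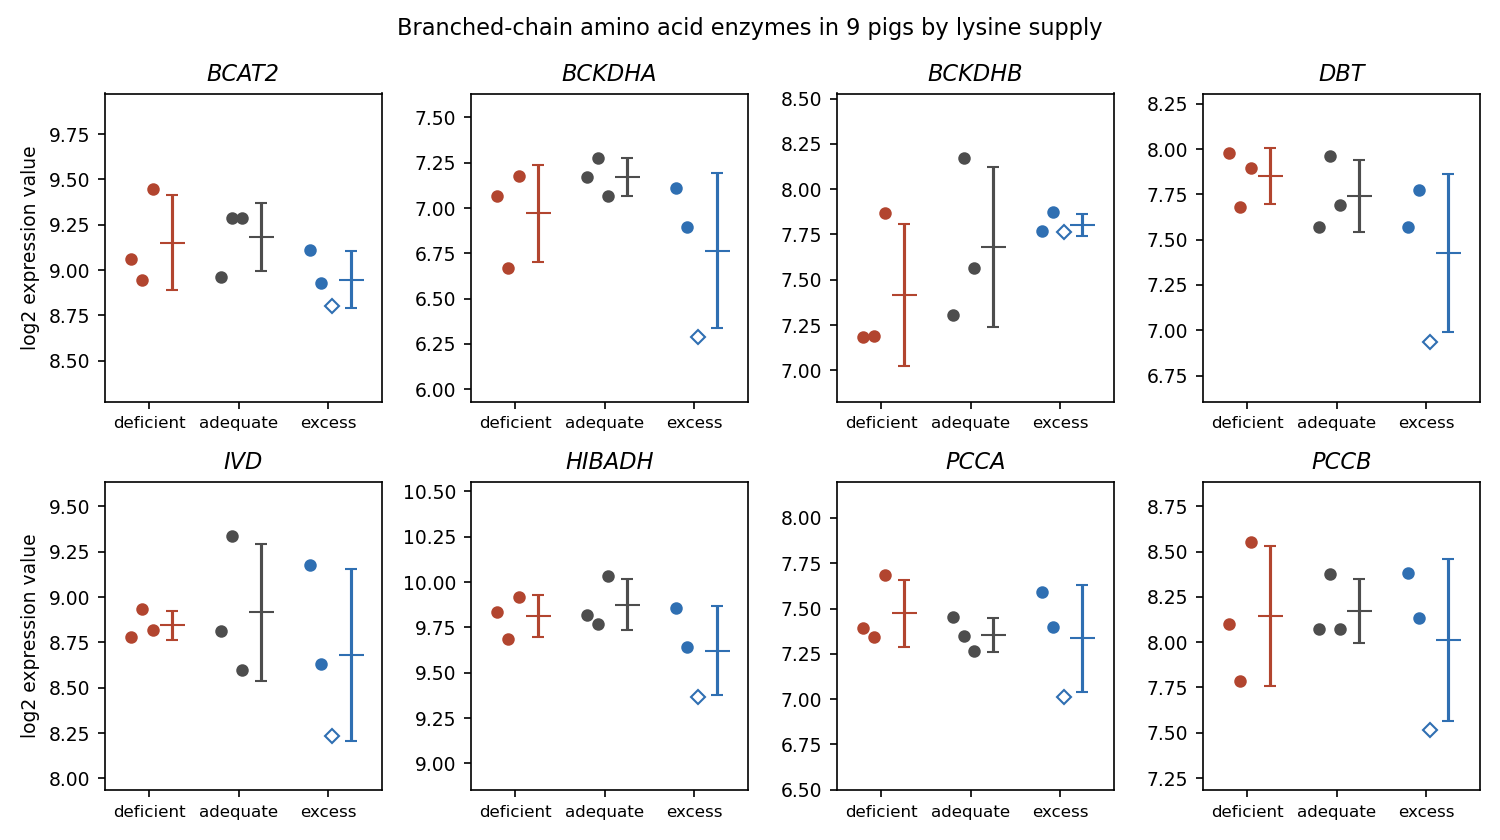
Log2 expression value (vertical axis, 1 panel per gene, each spanning the same number of log2 units) of 8 branched-chain amino acid enzymes in 3 lysine-deficient, 3 lysine-adequate and 3 lysine-excess pigs. Points are single pigs, the open diamond is excess pig 11, and the bar beside each group is its mean ± SD; in every panel the groups overlap, and excess pig 11 is the lowest point in 7 of 8.

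BCKDHA, the alpha subunit of the decarboxylase and the one that is phosphorylated to switch the complex off (probe set 15297056), read 7.07, 6.67 and 7.18 in deficient, 7.17, 7.27 and 7.07 in adequate and 7.11, 6.90 and 6.29 in excess pigs. The adequate pigs lay close together, with an SD of 0.10 against 0.27 in deficient and 0.43 in excess pigs. Deficient pig 2 and excess pigs 10 and 11 lay below all adequate pigs, while deficient pigs 1 and 3 and excess pig 9 reached the range of the adequate pigs. The difference from the adequate pigs was -0.20 ± 0.22 in deficient and -0.41 ± 0.22 in excess pigs. The latter, 1.32-fold lower, was the largest of the 8 in that comparison, and it was -0.17 without excess pig 11. The former was -0.048 without deficient pig 2.

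BCKDHB, the beta subunit of the same decarboxylase (probe set 15193790), had values of 7.19, 7.19 and 7.87 in deficient, 7.31, 8.17 and 7.56 in adequate and 7.77, 7.87 and 7.77 in excess pigs. The order of the group means differed from that of BCKDHA: excess pigs were the highest, at 7.80 ± 0.061 (SD, n = 3), followed by adequate at 7.68 ± 0.44 and deficient pigs at 7.41 ± 0.39. Neighbouring means in this order differed by less than the larger SD of the groups compared. Deficient pigs 1 and 2 and adequate pig 5 were low, while deficient pig 3 reached the level of the excess pigs. Deficient pigs lay 0.39 below excess pigs (a difference of -0.39 ± 0.25), the 1 negative difference among the 8 genes in that comparison, and by 0.61 without deficient pig 3 (-0.61). Deficient minus adequate was -0.27 ± 0.25, and ran from -0.49 without deficient pig 3 to -0.021 without adequate pig 6.

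DBT, the core subunit that carries the lipoyl arm of the complex (probe set 15281976), read 7.98, 7.68 and 7.90 in deficient, 7.57, 7.96 and 7.69 in adequate and 7.57, 7.77 and 6.94 in excess pigs. Excess pig 11 lay 0.63 below the next lowest pig (a difference of -0.63), the widest such gap of the 8 genes. Deficient minus excess was 0.43 ± 0.22, or 1.34-fold, with the smallest p of all 24 member differences (unadjusted p = 0.086 and adjusted p = 0.872 in limma). It was 0.18 ± 0.14 without excess pig 11. Deficient minus adequate was 0.11 ± 0.22, between 0.026 without adequate pig 5 and 0.22 without adequate pig 6.

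On the leucine branch, IVD, the dehydrogenase of isovaleryl-CoA (probe set 15195291), read 8.78, 8.93 and 8.82 in deficient, 8.81, 9.34 and 8.60 in adequate and 9.18, 8.63 and 8.23 in excess pigs. The deficient pigs spanned the least, with an SD of 0.079, against 0.38 in adequate and 0.47 in excess pigs. The differences from the adequate pigs were -0.071 ± 0.26 for deficient and -0.23 ± 0.26 for excess pigs, and the latter was -0.010 without excess pig 11 and -0.023 without adequate pig 6.

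On the valine branch, HIBADH, which oxidises free hydroxyisobutyrate (probe set 15251268), read 9.83, 9.69 and 9.92 in deficient, 9.82, 9.77 and 10.04 in adequate and 9.86, 9.64 and 9.37 in excess pigs. It had the smallest spread within diets of the 8 genes, at an SD of 0.18, close to the median of all probe sets, 0.17. Excess pigs 10 and 11 lay below all adequate pigs, but excess pig 9 lay among them. The difference of excess from adequate pigs was -0.25 ± 0.14 (limma unadjusted p = 0.102, adjusted p = 0.757), or -0.13 without excess pig 11, and that of deficient pigs was -0.064 ± 0.14.

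Propionyl-CoA carboxylase is assembled from PCCA, which carries biotin, and PCCB. PCCA (probe set 15204360) read 7.39, 7.35 and 7.68 in deficient, 7.45, 7.35 and 7.27 in adequate and 7.59, 7.40 and 7.01 in excess pigs. PCCB (probe set 15221241) read 8.10, 7.78 and 8.55 in deficient, 8.07, 8.38 and 8.07 in adequate and 8.38, 8.13 and 7.52 in excess pigs. Both were highest in deficient pig 3 and lowest in excess pig 11, and on both the adequate pigs lay inside the range of the excess pigs and overlapped the deficient pigs. Excess minus adequate was -0.021 ± 0.16 for PCCA and -0.16 ± 0.26 for PCCB. The sign of both turned without excess pig 11, to 0.14 and 0.084. The other PCCB probe set (15216920) differed by -0.39 ± 0.26 there, from 7.56 in adequate to 7.17 in excess pigs (-0.14 without excess pig 11), and by 0.023 ± 0.26 between deficient and adequate pigs.

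Between deficient and adequate pigs, 2 of the 8 genes were higher (DBT and PCCA) and 6 lower in mean, with log2 differences from -0.27 for BCKDHB to 0.12 for PCCA and a median of -0.046, beside a median of 0.0071 over all probe sets. Both ends of that span rested on single pigs, since BCKDHB was at -0.021 without adequate pig 6 and PCCA at 0.012 without deficient pig 3. Lower means made up 47% of all probe sets. Not a single member passed limma's adjusted p of 0.05 (0 of 8, beside 0% of all probe sets), and 0 of 8 had an unadjusted p below 0.05, beside 1.85%. Groups without overlap were seen for 0 of 8 genes, against 6.84% of all probe sets. The median was 0.037 without deficient pig 2 and 0.049 without adequate pig 6, so its sign rests on these pigs, and it was -0.15 without deficient pig 3.

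Between excess and adequate pigs, 7 of 8 genes lay lower in mean and BCKDHB higher, with a median of -0.23 beside 6.1e-04 over all probe sets, of which 49.8% were lower. Here too 0 of 8 passed the adjusted threshold in limma (0% of all probe sets), 0 had an unadjusted p below 0.05 (3.56%) and 0 had groups without overlap (7.03%). Without excess pig 11 the median was -0.040, with 3 genes higher and 5 lower, and it was -0.36 without excess pig 9 and -0.12 without adequate pig 6. With quantile normalization applied to the deposited values it was -0.11, with array quality weights -0.10, with arrays centred on their median -0.29 and with a covariate for array SD 0.0023. The split was 2 higher and 6 lower after quantile normalization.

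Between deficient and excess pigs, 7 genes lay higher and BCKDHB lower, with a median of 0.18 beside 1.1e-04 over all probe sets, of which 50% were higher. The counts were again 0 of 8 past the adjusted threshold in limma (0%), 0 below an unadjusted p of 0.05 (4.08%) and 0 without overlap (6.47%). When excess pig 11 was left out the median was -0.028, and 3 genes were higher and 5 lower. The median was also 0.31 without excess pig 9, 0.28 without deficient pig 2 and 0.079 without deficient pig 3. With array quality weights it was -0.017, with the covariate -0.042 and with quantile normalization 0.071. In limma's F test across the diets, adjusted p-values ran from 0.933 to 0.954 over the 9 probe sets, and 0 of 9 had an unadjusted p below 0.05, beside 2.54% of all probe sets.

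A difference that misses the threshold does not show that the diets acted alike, so the intervals bear on what 3 pigs per group could resolve. On the main probe sets all 24 of the 95% intervals, each for 1 gene and unadjusted, lay within a 2-fold change either way, from a lower bound of -0.97 (BCKDHB, deficient minus excess) to an upper bound of 0.93 (DBT, deficient minus excess). The narrowest were those of HIBADH, where deficient pigs lay between 0.768 and 1.19 times the adequate level. For BCKDHB the same interval ran from 0.554 to 1.25 times. The SE of a difference was 0.14 to 0.26 over the 8 genes, against a median of 0.13 over all probe sets. With excess pig 11 left out, the lower bound of BCKDHB in deficient minus excess was -1.12, outside that 2-fold span.

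**Figure D2:**
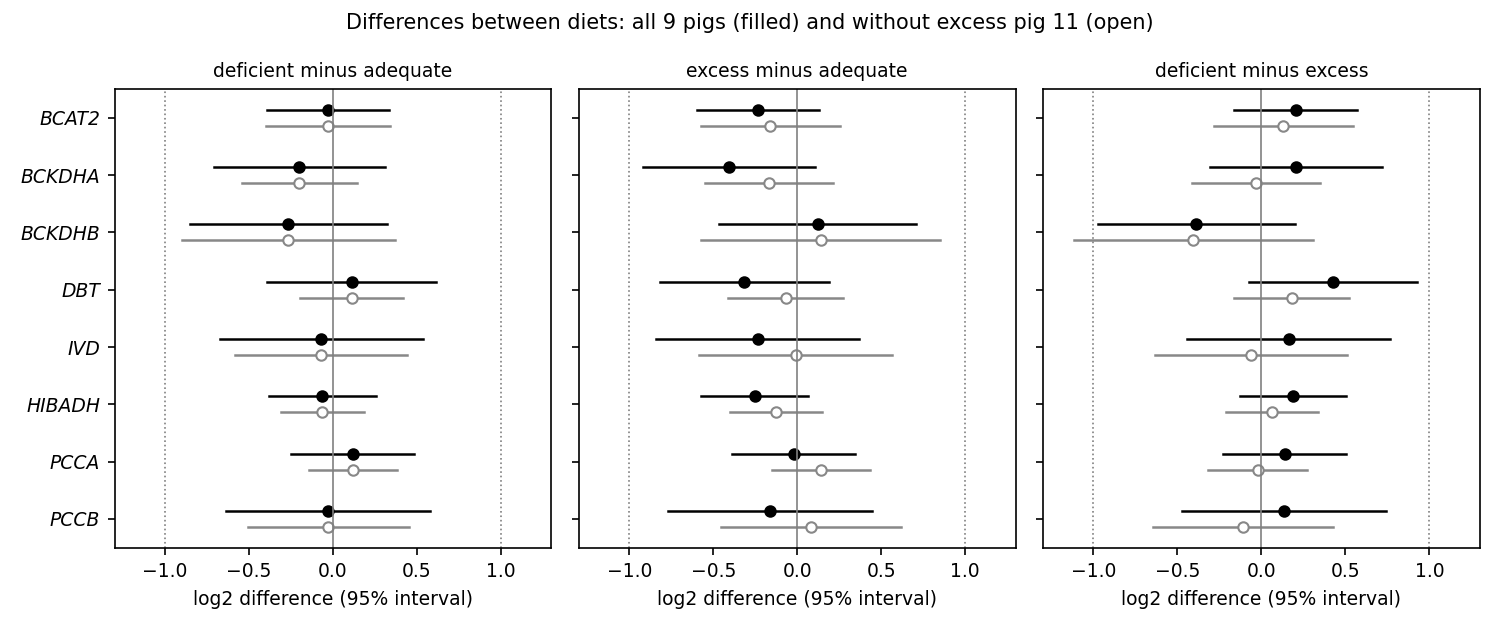
Log2 difference (horizontal axis) of each gene with its 95% interval in the comparisons deficient minus adequate, excess minus adequate and deficient minus excess. Filled points use all 9 pigs and open points leave out excess pig 11; every interval spans 0, and the dotted lines mark a 2-fold change.

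Several genes had their extreme values in the same pigs. Excess pig 11 had the lowest of the 9 values in 7 of 8 genes, while 31.6% of all probe sets, and 70.8% of the 5138 probe sets in the members' range of mean levels, had their lowest value in the same pig. The median deviation of the 8 genes from their own mean in this pig was -0.49, and that of all probe sets in the same range of levels was -0.44. After quantile normalization of the deposited values, 5 of 8 genes were still lowest in this pig, against 45.4% of the probe sets in that range. BCKDHB was the exception, with a deviation of 0.13 in this pig against -0.68 for BCKDHA and -0.74 for DBT. Deficient pig 3 was above the mean in 8 of 8 genes, and adequate pig 6 and excess pig 9 in 7 each. Their median deviations were 0.23, 0.28 and 0.14, where all probe sets in that range had 0.11, 0.095 and 0.091. The share of all probe sets above their own mean in these pigs was not counted. Deficient pig 2, with a median of -0.12, was below the mean in 6 of 8 genes. The part of array quality in these deviations was not tested.

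**Figure D3:**
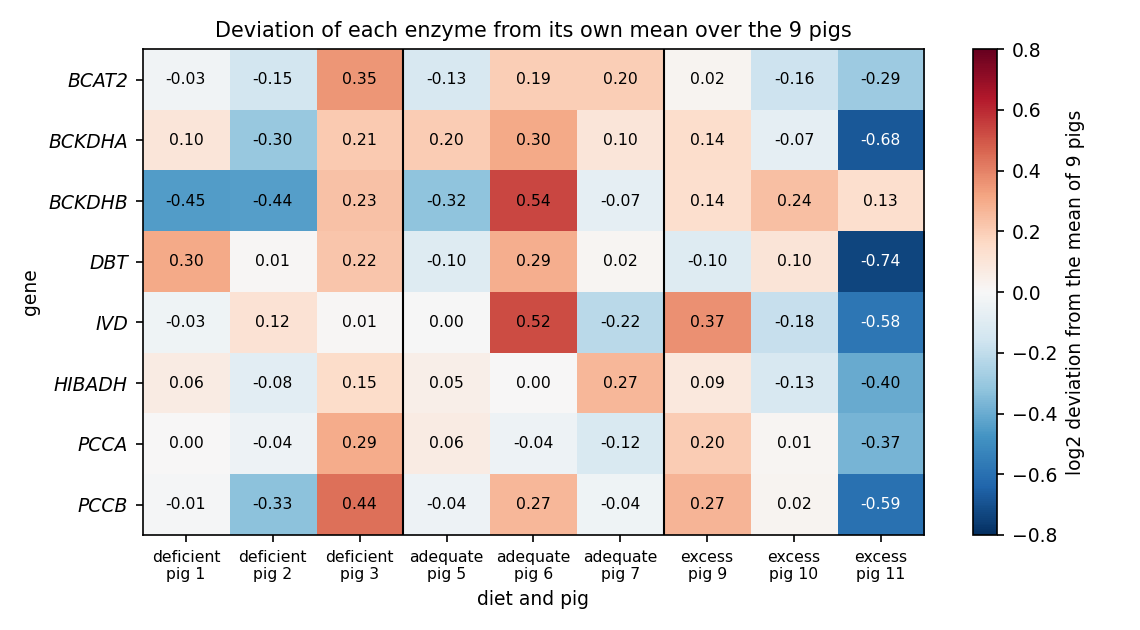
Deviation of each gene from its own mean over the 9 pigs (colour and number, log2 units), with genes in rows and pigs in columns. The column of excess pig 11 is low in all genes but BCKDHB, and that of deficient pig 3 is above the mean in all 8 genes.

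Subunits of 1 complex were compared across the 9 pigs in 4 pairs, with exact permutation tests (two-sided) adjusted over the 4 pairs. The pigs were permuted without regard to diet, and no test within diets was run. These tests treat the pigs as exchangeable, although 70.8% of probe sets in the members' range of mean levels were lowest in excess pig 11. Unrelated probe sets were not correlated for comparison, so the part of this shared low array in each r was not tested. PCCA and PCCB had a Pearson r of 0.86 (exact p = 0.0046, adjusted p = 0.018) and a Spearman rho of 0.75 (exact p = 0.026, adjusted p = 0.10). Without the 2 pigs farthest from the median of PCCA, excess pig 11 and deficient pig 3, r was 0.47. Leaving out the extreme pigs narrows the range of PCCA, which can by itself lower r. This value therefore cannot tell whether the relation rests on these pigs. After the diet means were subtracted r was 0.89, and without excess pig 11 alone it was 0.70 (exact p = 0.055, adjusted p = 0.22). The adjusted p also missed 0.05 without deficient pig 3 or excess pig 9, and after quantile normalization, where r was 0.60.

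BCKDHA and DBT had an r of 0.79 (exact p = 0.031, adjusted p = 0.062) and a rho of 0.44 (exact p = 0.24, adjusted p = 0.36), and r was 0.26 without excess pig 11 and 0.17 without this pig and deficient pig 2. BCKDHA and BCKDHB, the subunits of 1 decarboxylase, had an r of 0.16 (exact p = 0.69, adjusted p = 0.92) and a rho of 0.41 (exact p = 0.27, adjusted p = 0.36). BCKDHB and DBT had an r of 0.014 (exact p = 0.98, adjusted p = 0.98) and a rho of 0.12 (exact p = 0.78, adjusted p = 0.78). Without the 2 farthest pigs the r of these last pairs was 0.22 and 0.35, and after the diet means were subtracted that of the 3 pairs of the dehydrogenase was 0.83 for BCKDHA with DBT, 0.35 for BCKDHA with BCKDHB and 0.41 for BCKDHB with DBT.

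**Figure D4:**
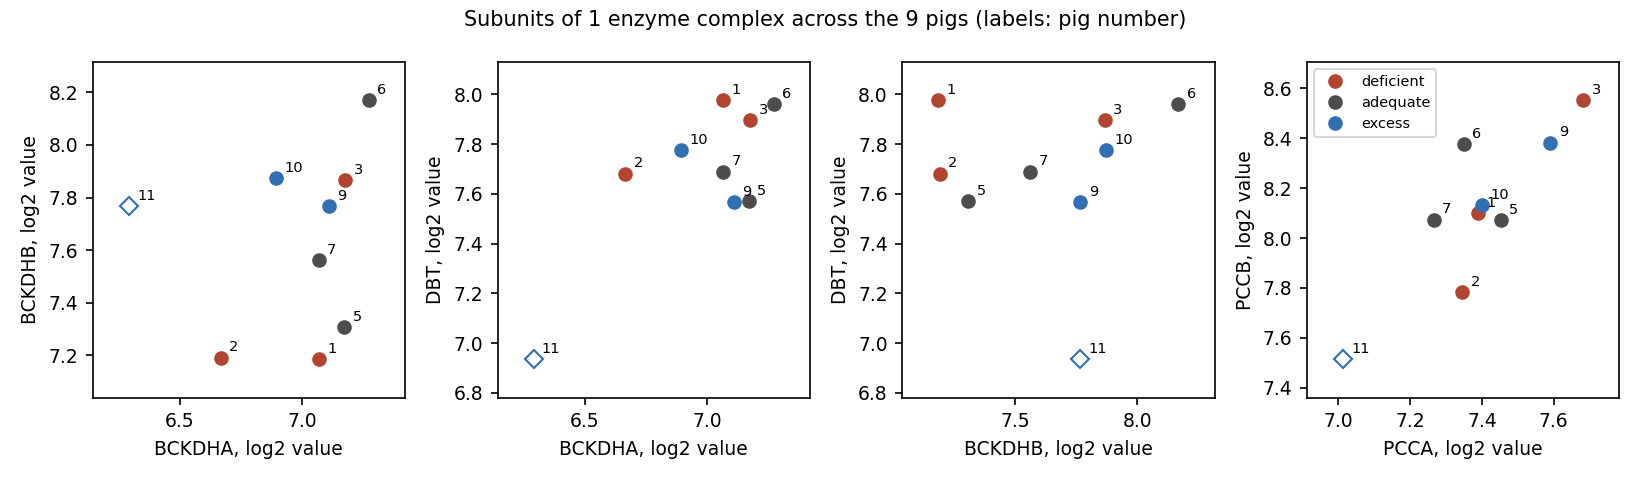
Log2 values of 2 subunits of 1 enzyme complex plotted against each other for BCKDHA with BCKDHB, BCKDHA with DBT, BCKDHB with DBT and PCCA with PCCB; each point is 1 pig, numbered, coloured by diet, with excess pig 11 as an open diamond. Excess pig 11 is the lowest point for BCKDHA, DBT, PCCA and PCCB but not for BCKDHB.

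The kinase that phosphorylates and inhibits the complex, BCKDK, read 9.31, 9.425 and 9.52 in deficient, 9.52, 9.88 and 9.48 in adequate and 9.55, 9.33 and 8.80 in excess pigs. Excess minus adequate was -0.40 ± 0.20 and deficient minus adequate -0.21 ± 0.20, close in size to the differences of its substrate BCKDHA, and adequate pig 6 and excess pig 11 were the extremes here as well. The excess difference of BCKDK was -0.18 without excess pig 11, and the deficient one was -0.081 without adequate pig 6. DLD, the subunit shared with the pyruvate and oxoglutarate dehydrogenases, differed by 0.10 ± 0.18 in deficient and -0.014 ± 0.18 in excess pigs from the adequate pigs. SLC25A44, the mitochondrial carrier of branched-chain amino acids, differed by 0.011 ± 0.17 and -0.25 ± 0.17, the latter being -0.12 without excess pig 11. Of 9 listed genes of control and transport, 3 were measured, with 1 higher and 2 lower in deficient and 0 higher and 3 lower in excess against adequate pigs, and 0 past limma's adjusted threshold.

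Of 16 other enzymes of the pathway fixed as a list, 11 were measured, and 0 passed limma's adjusted threshold in any of the 3 comparisons. In deficient against adequate pigs 5 were higher and 6 lower in mean (median -0.085). MCCC2, the partner subunit of MCCC1, differed by -0.31 ± 0.23, ALDH6A1, a late enzyme of the valine route, by -0.19 ± 0.25, and HIBCH, which frees hydroxyisobutyrate, by -0.18 ± 0.10. MCCC2 and ALDH6A1 were lowest in deficient pig 2, at 7.24 and 8.16, and without it their differences were -0.047 and 0.14, the sign of ALDH6A1 turning. That of HIBCH was -0.080 without deficient pig 1. HADHA, which serves fatty acid oxidation as well, was lower without overlap, by 1.06-fold (-0.085 ± 0.10, limma unadjusted p = 0.44, or -0.027 without adequate pig 7). Its highest deficient value was 9.838 and its lowest adequate value 9.843. It was 1 of 11 without overlap in this comparison, beside 6.84% of all probe sets. In excess against adequate pigs 2 were higher and 9 lower (median -0.10), but 7 were higher and 4 lower without excess pig 11 (median 0.016).

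ECHS1, an enoyl-CoA hydratase of the valine and isoleucine routes, was the 1 gene of that list with an unadjusted p below 0.05 against the adequate pigs, and it is named here because of its values. It read 7.69, 7.79 and 8.003 in deficient, 7.96, 8.43 and 8.31 in adequate and 7.96, 7.87 and 7.84 in excess pigs. Adequate pigs 6 and 7 lay above the other 7 pigs. Deficient minus adequate was -0.41 ± 0.13 (limma unadjusted p = 0.017, adjusted p = 1.00) and excess minus adequate -0.34 ± 0.13 (unadjusted p = 0.034, adjusted p = 0.757), and the adequate pigs are shared by both. Without adequate pig 6 these differences were -0.31 and -0.25. MCEE, methylmalonyl-CoA epimerase, which follows propionyl-CoA carboxylase, was 1.24-fold higher in deficient than in excess pigs without overlap (0.31 ± 0.12, limma unadjusted p = 0.031, adjusted p = 0.872). The difference of MCEE was 0.21 without deficient pig 1. It was 1 of 11 listed genes without overlap there, beside 6.47% of all probe sets. HSD17B10, a dehydrogenase of the isoleucine route, lay 1.28-fold lower in excess than in adequate pigs without overlap, with excess pig 11 at 7.74 and the other 8 pigs from 8.54 to 8.74. Its difference of -0.35 was -0.075 without excess pig 11. In excess against adequate pigs 2 of 11 listed genes had no overlap, beside 7.03% of all probe sets.

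Genes of mitochondrial content were set beside the members, since all 8 encode mitochondrial enzymes. Of 12 measured, 7 were higher and 5 lower in deficient against adequate pigs (median 0.022) and 2 higher and 10 lower in excess against adequate pigs (median -0.13), and 0 passed limma's adjusted threshold in either. The latter counts were 6 higher and 6 lower without excess pig 11 (median 0.019). HSPD1, the mitochondrial chaperonin, was the 1 gene of this list without overlap in deficient against adequate pigs (0.27 ± 0.16), 1 of 12 beside 6.84% of all probe sets. It was also higher in deficient than in excess pigs without overlap (0.51 ± 0.16, limma unadjusted p = 0.015, adjusted p = 0.872), or 0.30 without excess pig 11. There too it was 1 of 12, beside 6.47% of all probe sets. Of 6 measured cofactor and electron acceptor genes, such as ETFA and ETFDH, which pass on the electrons taken up by IVD, 4 were higher and 2 lower in deficient and 0 higher and 6 lower in excess against adequate pigs, with 0 past the threshold. The latter split was 3 higher and 3 lower without excess pig 11. MMAB, of vitamin B12 metabolism, was lower in excess than in adequate pigs without overlap, by 1.13-fold. It was 1 of 6 in this comparison, beside 7.03% of all probe sets.

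Marker lists of other cell types also differed in mean between the diets, and 0 of their genes passed limma's adjusted threshold. All 9 measured fibroblast and matrix markers had lower means than in the adequate pigs in both other diets. Their median difference was -0.45 in deficient and -0.47 in excess pigs (-0.30 without excess pig 11). COL1A1, among them, differed by -0.45 ± 0.12 and -0.25 ± 0.12 (the latter -0.16 without adequate pig 5). No overlap with the adequate pigs was seen for 4 of 9 in deficient pigs, beside 6.84% of all probe sets. In excess pigs it was 3 of 9, beside 7.03%. Means were also lower in both diets for 6 of 6 smooth muscle and pericyte markers (medians -0.30 and -0.40, or -0.26 without excess pig 11). Their mean level in a pig ran from 7.93 to 8.09 in deficient, 8.15 to 8.56 in adequate and 7.73 to 8.30 in excess pigs. Of 8 adipocyte markers, 6 were higher in deficient and 7 lower in excess pigs (medians 0.17 and -0.33). Their mean level in a pig ran from 7.00 to 7.16 in deficient, 6.58 to 7.03 in adequate and 6.46 to 6.59 in excess pigs. These list means of deficient and excess pigs did not overlap. By gene, 4 of 8 had no overlap in that comparison, beside 6.47% of all probe sets. There 7 were higher and 1, PLIN4, lower in deficient pigs (-0.080), and only 6 of 8 lay above the median level of all probe sets.

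The 5 muscle markers had median differences from the adequate pigs of -0.064 in deficient and 0.0075 in excess pigs (ACTA1 -0.024 ± 0.11 and 0.13 ± 0.11, the latter 0.025 without excess pig 11). The 6 endothelial markers had medians of 0.056 and -0.013 (PECAM1 0.038 ± 0.16 and 0.20 ± 0.16, the latter 0.046 without excess pig 9). Of the 6 leukocyte markers 2 were higher and 4 lower in each of the other diets, with medians of -0.12 and -0.078. PTPRC, at -0.14 ± 0.19 and 0.38 ± 0.19, was the highest of this list in excess pigs, against the direction of most of it, and it was at 0.19 without excess pig 11. For the erythroid markers the medians were 0.027 and 0.013, and for those of nerve and Schwann cells 0.034 and 0.15, the latter being 0.047 without excess pig 11. The mean level of the 8 enzymes in a pig ran from 8.03 to 8.42 in deficient, 8.15 to 8.44 in adequate and 7.74 to 8.32 in excess pigs. The part of these cell types in the values of the enzymes was not tested.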

How the data were processed

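Total RNA of 9 muscle samples was extracted with TRIzol, amplified to sense-strand cDNA and hybridised to whole-transcript GeneChip arrays, per the labels' protocols. The authors deposited 1 table of processed log2 values. The submitters' processing notes list GCOS 1.2 and Partek; how background was corrected, probes summarized and arrays normalized is not given in the sources used here. Only the range of the values points to base 2.

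Probe sets were named from the platform annotation with symbols updated through Entrez IDs: 13323 had 1 symbol, 357 several and 13878 none. All 27558 probe sets were fitted over the 9 arrays, with a mean for each diet, in R 4.3.3 by limma 3.58.1 (lmFit, eBayes), two-sided, with Benjamini-Hochberg adjustment over all probe sets and a threshold of 0.05. Control probe sets could not be told apart and stayed in. Intervals are 95% intervals of this fit, and their precision is limited by 3 arrays per diet. The fit was tested on simulated data. Subunit pairs were tested by exact permutation in Python 3.11.15.

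The members and the other gene lists (15 lists in all) were chosen with earlier results of these data known. Named genes are the members, their fixed partners (BCKDK, DLD, MCCC2, HIBCH, ALDH6A1 and SLC25A44 were measured), up to 2 genes per pathway list and comparison with the smallest p among those without overlap, and set defining markers; ECHS1, GLUD1 and GCDH were added after their values were seen. Sequences and coordinates were not used here. The alternatives tried were median centring, quantile normalization of the deposited values, array quality weights, array SD as a covariate, an intensity trend plus robust prior, fits on only the 6 arrays in question, the dimmest 25 percent left out, only probe sets with 1 symbol, all probe sets of a gene averaged, and each pig left out.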

Additional observations from a re-analysis of the deposited data

How the results depend on the processing

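In every alternative run, 0 of the 24 member differences passed an adjusted p of 0.05 in limma (the smallest adjusted p was 0.276), 12 kept their sign throughout and 12 turned it at least once. The cause of the turns was not tested. After quantile normalization of the deposited values, PCCA in excess minus adequate was 0.11. With array quality weights PCCA was 0.084 there, and in deficient minus excess BCKDHA was -0.014, IVD -0.031, PCCA -0.021 and PCCB -0.14. With array SD as a covariate, PCCB in deficient minus adequate was 0.043, IVD, PCCA and PCCB in excess minus adequate were 0.081, 0.21 and 0.19, and BCKDHA, IVD, PCCA and PCCB in deficient minus excess were -0.039, -0.090, -0.045 and -0.15. With 1 pig left out at a time, deficient minus adequate ran from -0.18 to 0.074 for BCAT2, -0.23 to 0.14 for IVD, -0.12 to 0.017 for HIBADH and -0.23 to 0.15 for PCCB. Excess minus adequate ran from -0.064 to 0.37 for BCKDHB, -0.15 to 0.14 for PCCA and -0.35 to 0.084 for PCCB. Deficient minus excess ran from -0.032 to 0.38 for BCKDHA, -0.061 to 0.41 for IVD, -0.023 to 0.27 for PCCA and -0.11 to 0.32 for PCCB. Leaving out each pig was added for the named genes outside the members and for the other PCCB probe set after the data had been seen. The median of the members ran from -0.15 to 0.049, -0.36 to -0.040 and -0.028 to 0.31 in the same order of comparisons.

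The number of probe sets past the adjusted threshold, 0 in each comparison, was 1 with array quality weights in deficient minus adequate and in the F test, and 1 in deficient minus excess when only probe sets with 1 gene symbol were tested. After quantile normalization of the deposited values, r was -0.19 for BCKDHA and BCKDHB, -0.21 for BCKDHB and DBT and 0.60 for PCCA and PCCB (adjusted p = 0.185, exact permutation test). With 1 pig left out, r ran from -0.069 to 0.50 for BCKDHA and BCKDHB, 0.26 to 0.85 for BCKDHA and DBT, -0.25 to 0.29 for BCKDHB and DBT and 0.70 to 0.93 for PCCA and PCCB. BCKDHA with DBT passed without adequate pig 5 (r = 0.85, exact permutation test, adjusted p = 0.042), and PCCA with PCCB did not without deficient pig 3, excess pig 9 or excess pig 11. No paired analysis was possible because the pigs of different diets share no replicate number. Signal over background could not be tested.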

Other observations

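The amino groups that BCAT2 takes from the branched-chain amino acids end in glutamate, and 6 genes that handle glutamate, alanine and glutamine nitrogen were measured. GLUD1, glutamate dehydrogenase, read 8.90, 8.68 and 9.32 in deficient, 9.25, 9.36 and 9.36 in adequate and 9.36, 9.31 and 9.26 in excess pigs. Deficient pigs 1 and 2 lay below the other 7 pigs, and these were also the lowest pigs for BCKDHB. Deficient minus adequate was -0.36 ± 0.15 (limma unadjusted p = 0.045, adjusted p = 1.00), or -0.21 without deficient pig 2 and -0.53 without deficient pig 3, and GLUD1 is named because of its values. GPT2, a mitochondrial alanine aminotransferase, was 1.18-fold higher in deficient than in adequate pigs without overlap (0.24 ± 0.12, or 0.11 without deficient pig 1) at a mean level on the 25.9th percentile of all probe sets. It was 1 of 6 without overlap, beside 6.84% of all probe sets. Of the 6 genes 2 were higher and 4 lower in this comparison, and 0 passed the adjusted threshold.

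Among 11 measured genes of related complexes and dehydrogenases, which act on pyruvate, oxoglutarate or acyl-CoA, 6 were higher and 5 lower in deficient against adequate pigs (median 0.037), 2 were higher and 9 lower in excess against adequate pigs (median -0.093, or 0.051 without excess pig 11), and 0 passed the adjusted threshold in limma. ACAD11, an acyl-CoA dehydrogenase, was 1.40-fold lower in excess than in adequate pigs without overlap (-0.48 ± 0.18, or -0.31 without excess pig 11). In that comparison 2 of 11 genes had no overlap, beside 7.03% of all probe sets. GCDH, the glutaryl-CoA dehydrogenase of lysine and tryptophan breakdown, is in this list. It is named because of its role, but was added after its values were seen. It read 6.085, 6.04 and 6.41 in deficient, 6.24, 6.25 and 6.15 in adequate and 6.28, 6.10 and 5.46 in excess pigs, and the groups overlapped. PC, the biotin enzyme pyruvate carboxylase, was 1.41-fold lower there and 1.49-fold higher in deficient than in excess pigs, both without overlap, and excess pig 11 read 5.795 where the other 8 pigs ran from 6.45 to 7.16. Without this pig the differences of PC were -0.26 and 0.33. In deficient against excess pigs 1 of 11 genes had no overlap, beside 6.47% of all probe sets.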
